A study of Mus musculus with 18 samples.

Results

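Knockout clone 2 (KO2) was compared with knockout clone 1 (KO1) of the mouse pancreatic tumor line 6419c5 by RNA sequencing. Both clones carry a knockout of Kdm3a, so the comparison is between separately derived knockout cells of the same line, and it was carried past the difference in macrophage genes between them. There were 3 KO2 libraries and 3 KO1 libraries among the 18 of the series, and 13221 of the 24493 deposited genes had a mean of at least 1 TPM (a length-corrected measure of transcript abundance) in these 6. All samples were tumor cells sorted from tumors grown under the skin, of strain C57BL/6, without any treatment. The KO2 and KO1 groups had the Kdm3a knockout, and the WT group of the same line, whose levels are given beside them, also had 3 libraries. Genes outside the fixed naming rule, most of them members of the gene lists, were chosen after their values were seen. Each knockout group was derived from 1 clone, so its 3 libraries show the spread within that clone and not between independent knockouts. How the knockout was made, the marker used for sorting and the age of the host mice are not given in the labels, nor is it stated that libraries of a group came from different mice. The p-values therefore measure the spread between libraries, which may be technical. In the deposited columns the clones carry letters, which were read in alphabetical order as KO1 and KO2; were they the other way round, every sign below would turn.

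Kdm3a encodes a demethylase that removes methyl groups from lysine 9 of histone H3, a mark of silenced chromatin. A knockout clone grows out of a single cell, so it carries whatever genome and chromatin state that cell had, besides the intended loss. In pancreatic tumors, cells differ in how far they keep an epithelial, glandular program, in their response to interferon and in chromosome number.

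Kdm3a itself (chromosome 6, 71588972 to 71632990, minus strand, build mm10) had 12.3, 18.8 and 13.5 TPM in KO2 libraries, against 21.6, 24.6 and 21.6 TPM in KO1 libraries, and the groups did not overlap. WT libraries had 38.2, 24.1 and 32.9 TPM. The difference between the clones was small and close to the threshold (log2 difference -0.59, SE 0.17, limma adjusted p = 0.0444, and -1.01 at equal index, adjusted p = 0.0387). Kdm3a lost its limma call in the 6 libraries without KO2 replicate 1 or 3 or KO1 replicate 1, 2 or 3 (adjusted p = 0.0719 to 0.145). Kdm3a lost its limma call at equal index without KO2 replicate 1 or 3 or KO1 replicate 1, 2 or 3 (adjusted p = 0.0555 to 0.097). Gene totals do not show whether a functional transcript was left in either clone. The related demethylase gene Kdm3b did not pass the test (log2 difference 0.26, SE 0.10, limma adjusted p = 0.104).

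Macrophage genes were lower in KO2. The macrophage index, the mean log2(TPM + 1) of 10 macrophage genes, was 3.95, 3.68 and 4.56 in KO2 libraries, against 7.06, 8.95 and 8.59 in KO1 libraries. WT libraries lay at 5.96, 6.69 and 8.68. With 3 libraries against 3 an exact permutation test cannot give a p below 0.1, so the index is given as values only. In the model fitted over all genes, 24 of 25 macrophage and monocyte genes passed as lower in KO2 and none as higher, and Ccr2 did not pass. Over all genes the shares were 17.5% lower and 7.28% higher. Their summed level was 608 to 1036 TPM in KO2 and 4948 to 18132 TPM in KO1. C1qa, which encodes a chain of complement C1q, had 37.6, 24.7 and 52.9 TPM in KO2 libraries, against 383, 1574 and 1221 TPM in KO1 libraries. In bulk RNA, fewer cells of a type and less RNA per cell cannot be told apart.

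Markers of several other cell types moved with the clones as well. The summed fibroblast markers were 1063 to 1122 TPM in KO2 and 1958 to 2268 TPM in KO1, and 15 of 21 tested fibroblast genes were lower in KO2. Endothelial markers summed to 31.6 to 35.2 TPM in KO2 and 61.1 to 70.1 TPM in KO1, with 7 of 9 lower. Skeletal muscle markers summed to 23.1 to 35.5 TPM in KO2 and 52.0 to 146 TPM in KO1, with 6 of 8 lower. Neutrophil markers summed to 14.4 to 27.4 TPM in KO2 and 75.4 to 93.1 TPM in KO1, with 5 of 8 lower. Mast cell and basophil markers summed to 41.9 to 43.2 TPM in KO2 and 147 to 197 TPM in KO1, although 1 of 4 tested genes, the mast cell protease gene Mcpt4, passed the test (log2 difference -2.28, SE 0.21, limma adjusted p = 0.00201, and -1.84 at equal index, adjusted p = 0.00237). Dendritic cell markers summed to 6.06 to 11.3 TPM in KO2 and 28.2 to 75.04 TPM in KO1, with 4 of 5 lower. T and NK cell markers summed to 4.75 to 7.85 TPM in KO2 and 9.37 to 20.7 TPM in KO1, with 1 of 2 tested genes lower. B and plasma cell markers, none of which reached the filter, summed to 0.858 to 1.62 TPM in KO2 and 1.67 to 4.36 TPM in KO1. The sums for erythroid cells (188 to 343 TPM in KO2, 253 to 400 TPM in KO1) and adipocytes (35.6 to 38.3 TPM in KO2, 28.9 to 36.7 TPM in KO1) overlapped between the clones, as did those for Schwann and nerve cells, skin keratinocytes and pancreatic acinar cells. None of the macrophage, fibroblast or endothelial markers was at 0 in all libraries of a clone, while 4 of 10 acinar markers were at 0 in all 6 libraries. Beyond fits with an index of macrophage genes, or of macrophage and fibroblast genes (381 higher and 798 lower), the part of these cells in the results below was not tested.

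**Figure D1:**
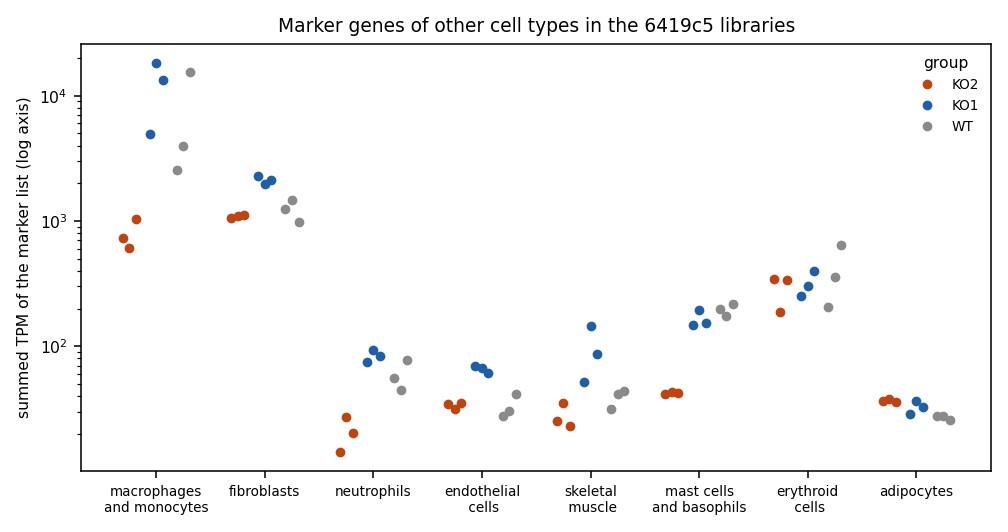
Summed TPM of marker gene lists (log axis) in each library of 6419c5, with 3 points per group for KO2, KO1 and WT. KO2 libraries lie below KO1 libraries for macrophages (608 to 1036 TPM in KO2, 4948 to 18132 TPM in KO1), fibroblasts, neutrophils, endothelial cells, muscle and mast cells, and overlap with them for erythroid cells and adipocytes.

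With 6 libraries and limma, 963 genes were higher in KO2 and 2310 were lower at an adjusted p under 0.05, which is 7.28% and 17.5% of the genes tested. In a second fit, group means and the macrophage index were fitted together to all 18 libraries, so that the clones are compared at an equal macrophage index. There 422 genes were higher in KO2 and 1004 lower, or 3.19% and 7.59%. A total of 314 genes were higher in both fits (2.38%) and 672 were lower in both (5.08%), while 3 were called in opposite directions. Of the genes called lower in the 6 libraries, 1635 were not called at equal index, and for 240 the difference at equal index was at or above 0. The median difference of all genes was -0.05 in the 6 libraries and -0.18 at equal index on the log2 scale. The equal-index fit takes its slope for each gene from all 6 groups of the series. When only the 9 libraries of 6419c5 were used with the index, 0 genes were called higher and 20 lower (625 and 1197 at an unadjusted p under 0.05). The 314 and 672 genes all kept their sign there. They were picked from fits that hold the same KO2 and KO1 libraries, so this is not an independent check.

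The counts leaned on single libraries. In the 6-library fit the counts of higher and lower genes fell to 497 and 1164 without KO2 replicate 1, to 399 and 1161 without KO2 replicate 3, to 523 and 1432 without KO1 replicate 2, and to 396 and 1054 without KO1 replicate 3. At equal index they were 313 and 583 without KO2 replicate 1, 267 and 547 without KO2 replicate 3, and 243 and 616 without KO1 replicate 1. The split by direction also moved with scaling. Quantile normalization gave 1959 higher and 1608 lower genes in the 6 libraries, and 831 higher and 536 lower at equal index, with a shift of the median gene by 0.15 and 0.20. With median-of-ratios scaling there were 1521 higher against 1977 lower genes, and 936 higher and 653 lower at equal index, where it shifted the median gene by 0.18. Without the 20 most abundant genes the counts were 1519 higher and 2021 lower, and 593 higher and 907 lower at equal index. One small RNA gene, Mir6236, took 8.20% to 17.2% of all TPM in KO2 libraries and 7.18% to 9.66% in KO1 libraries. List medians below are therefore to be read against the medians of all genes, -0.05 and -0.18. List counts are to be read against the shares of all genes, 7.28% higher and 17.5% lower in the 6 libraries. At equal index those shares were 3.19% and 7.59%. For the interferon, MHC, epithelial, antioxidant, Wnt and Notch, chemokine, complement, immediate early and unfolded protein lists, the median kept its sign under all 3 of these scalings in both fits. Where the values of a called gene are given library by library, the KO2 and KO1 libraries did not overlap.

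**Figure D2:**
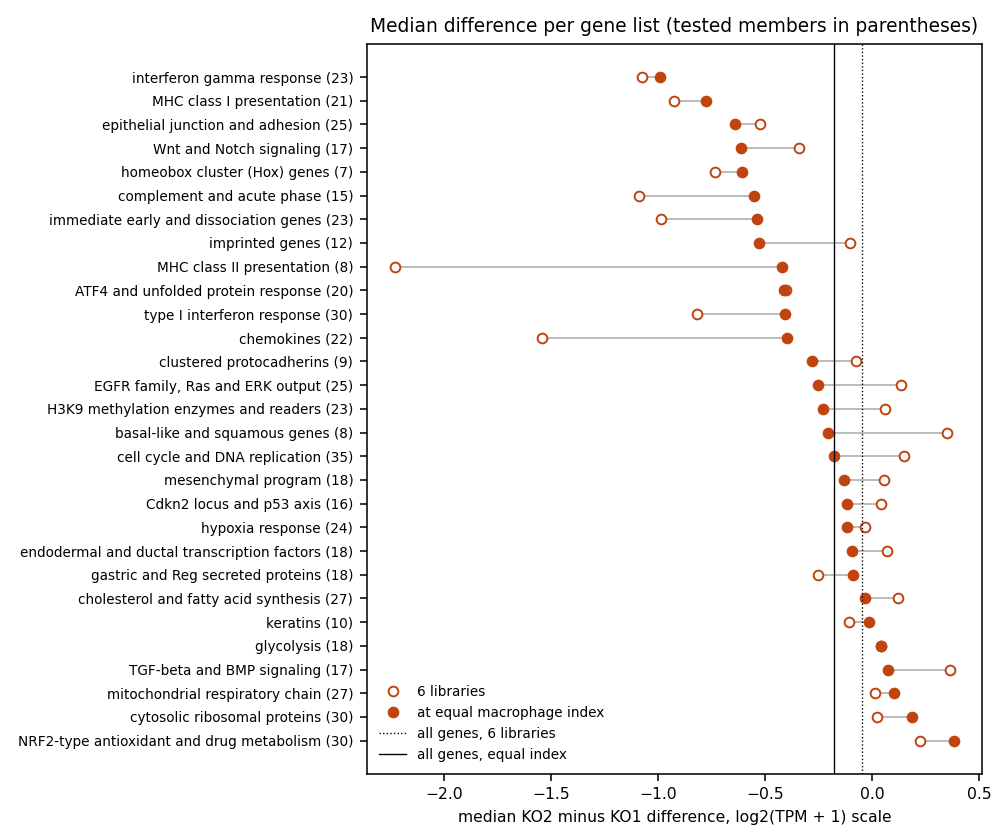
Median KO2 minus KO1 difference on the log2(TPM + 1) scale for each gene list of tumor cell programs with at least 5 tested members, in the 6-library fit (open circles) and at equal macrophage index (filled circles). Vertical lines mark the medians of all genes, -0.05 (dotted) and -0.18 (solid). The interferon gamma list lies at -1.08 and -0.99, and the antioxidant list at 0.22 and 0.38.

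Genes higher in KO2 were led by Hsd3b1 and Tff2. Those given here are among the 15 with the largest rise of 294 genes that were called in both fits, reached 5 TPM in KO2 and did not overlap between the clones; over all genes tested, 15.8% had all KO2 libraries above all KO1 libraries. Hsd3b1, an enzyme of steroid hormone synthesis (chromosome 3, 98852194 to 98859794, minus strand), had 11.5, 18.2 and 13.6 TPM in KO2 libraries, against 0.872, 0.818 and 0.0557 TPM in KO1 libraries. It was low in KO1 and also in WT, with 0.651, 1.88 and 0.883 TPM (log2 difference 3.31, SE 0.29, limma adjusted p = 0.00167, and 3.24 at equal index, adjusted p = 0.000274). Tff2, a trefoil peptide secreted with gastric mucus (chromosome 17, 31141049 to 31144282, minus strand), had 71.5, 82.2 and 71.0 TPM in KO2 libraries, against 5.68, 10.2 and 9.73 TPM in KO1 libraries. WT libraries were higher than either clone, at 212, 296 and 169 TPM (log2 difference 3.03, SE 0.21, limma adjusted p = 0.000959, and 3.27 at equal index, adjusted p = 0.000266). Its neighbor Tff1, another gastric trefoil peptide, had 45.7, 35.9 and 58.4 TPM in KO2 libraries, against 16.6, 5.19 and 6.89 TPM in KO1 libraries (log2 difference 2.30, SE 0.39, limma adjusted p = 0.00922, and 2.78 at equal index, adjusted p = 0.0253). Both genes were thus low in KO1 relative to KO2 and WT. Tff1 lost its limma call at equal index without KO2 replicate 1 or 3 (adjusted p = 0.0501 to 0.0736).

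Twist1, a transcription factor of mesenchymal cells (chromosome 12, 33957671 to 33959829, plus strand), had 16.2, 17.9 and 20.1 TPM in KO2 libraries, against 2.94, 2.64 and 1.94 TPM in KO1 libraries. WT libraries, at 10.2, 11.7 and 8.27 TPM, lay between the clones without touching either (log2 difference 2.45, SE 0.16, limma adjusted p = 0.000917, and 2.90 at equal index, adjusted p = 0.000474). March4, a membrane-bound ubiquitin ligase gene (chromosome 1, 72427112 to 72536930, minus strand), had 8.93, 7.02 and 7.66 TPM in KO2 libraries, against 1.04, 0.934 and 1.23 TPM in KO1 libraries (log2 difference 2.10, SE 0.16, limma adjusted p = 0.00142, and 2.07 at equal index, adjusted p = 0.000266). It rose although most genes of its chromosome were lower in KO2, as described below. Sdc2, a heparan sulfate proteoglycan of the cell surface, had 19.6, 41.2 and 21.1 TPM in KO2 libraries, against 5.65, 4.87 and 5.12 TPM in KO1 libraries (log2 difference 2.11, SE 0.28, limma adjusted p = 0.00421, and 1.72 at equal index, adjusted p = 0.0222). KO2 replicate 2 was the highest library and no library of the clones overlapped. Sdc2 lost its limma call at equal index without KO1 replicate 1 (adjusted p = 0.07).

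The near-identical cornified envelope genes Sprr2a2 and Sprr2a3 rose together, and since reads can be split between such copies their separate values are uncertain. Sprr2a3 had 233, 222 and 187 TPM in KO2 libraries, against 27.5, 42.6 and 62.3 TPM in KO1 libraries (log2 difference 2.32, SE 0.27, limma adjusted p = 0.0036, and 2.36 at equal index, adjusted p = 0.00131). The other rises were Megf11, a receptor with EGF-like repeats (2.09 on the log2 scale, 1.96 at equal index), Wtip, a LIM protein of cell contacts (2.05 in the 6 libraries), Actr3b, a relative of the actin-nucleating Arp3 (1.96 and 1.67), Gjc1, the gap junction protein connexin 45 (1.95 and 1.57), Ces3a, a carboxylesterase (2.06 and 1.77), and 5330417C22Rik (2.16 and 2.14). Gjc1 had 4.58, 5.45 and 5.65 TPM in KO2 libraries, against 0.645, 0.537 and 0.631 TPM in KO1 libraries, a narrow spread on both sides. Ces3a lost its limma call at equal index without KO2 replicate 1 or KO1 replicate 1 (adjusted p = 0.0613 to 0.139). 5330417C22Rik lost its limma call in the 6 libraries without KO1 replicate 3 (adjusted p = 0.0598). 5330417C22Rik lost its limma call at equal index without KO1 replicate 1 (adjusted p = 0.0921).

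**Figure D3:**
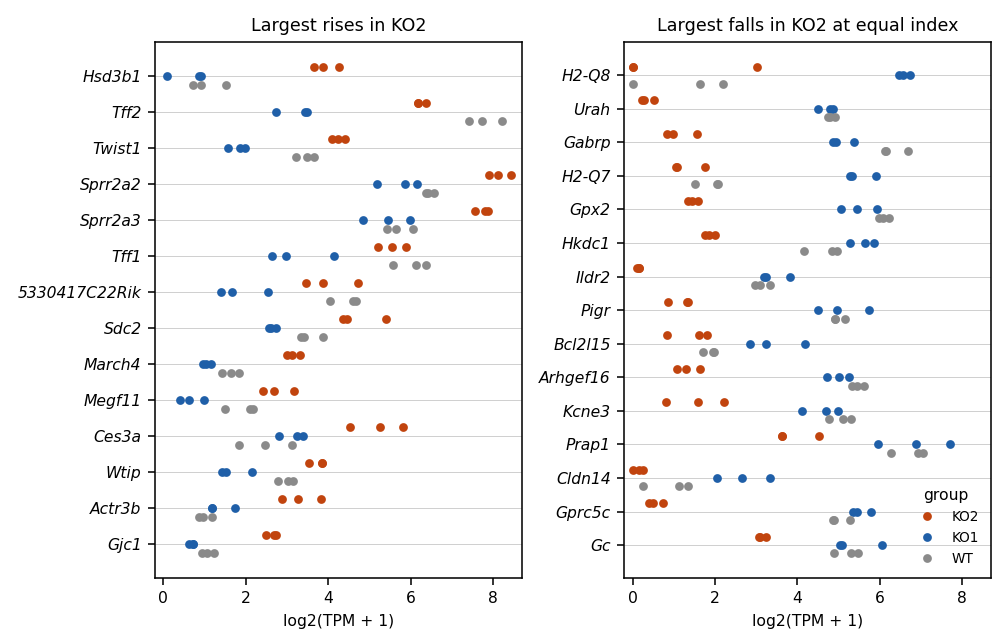
Level of single genes in each library of KO2, KO1 and WT, as log2(TPM + 1). The left panel shows 14 of the 15 largest rises in the 6 libraries and the right panel the 15 largest falls at equal macrophage index. No KO2 library overlaps a KO1 library for any gene shown, which the rule required; Tff2 and Tff1 are low in KO1 relative to WT, while Urah, Gabrp and Gpx2 are low in KO2 relative to WT.

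Ranked by the 6 libraries, the 15 largest falls included genes that macrophages express. Ccl8, a monocyte-attracting chemokine, had 27.0, 11.2 and 39.6 TPM in KO2 libraries, against 1024, 3874 and 2865 TPM in KO1 libraries (log2 difference -6.55, SE 0.60, limma adjusted p = 0.00201, and -1.25 at equal index, adjusted p = 0.0294). The lectin and receptor genes Clec10a, Cd209d, Cd209e, Mgl2, Fcna and Fcgr2b and the complement gene C4b fell too, Clec10a the most of them (-5.95 on the log2 scale), and their differences at equal index were between -2.62 and -0.99. The summed macrophage markers of the libraries (608 to 1036 TPM in KO2, 4948 to 18132 TPM in KO1) moved with these genes; apart from the fit at equal index, their part in the falls was not tested. Ccl8 lost its limma call at equal index without KO2 replicate 3 or KO1 replicate 1 (adjusted p = 0.0522 to 0.143). Clec10a lost its limma call at equal index without KO2 replicate 2 or 3 or KO1 replicate 1, 2 or 3 (adjusted p = 0.0691 to 0.146). Cd209d lost its limma call at equal index without KO2 replicate 1, 2 or 3 or KO1 replicate 1 or 2 (adjusted p = 0.0512 to 0.117). Mgl2 lost its limma call at equal index without KO2 replicate 1 or 3 or KO1 replicate 1, 2 or 3 (adjusted p = 0.0549 to 0.0882). Fcna lost its limma call at equal index without KO2 replicate 3 (adjusted p = 0.0606). Fcgr2b lost its limma call at equal index without KO2 replicate 3 (adjusted p = 0.0571). C4b lost its limma call at equal index without KO2 replicate 3 (adjusted p = 0.0552).

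A ranking at equal index, chosen after the values were seen, gave another set of 15 falls. Over all genes, 28.3% had all KO2 libraries below all KO1 libraries. Urah, which encodes a hydrolase of urate breakdown (chromosome 7, 140835018 to 140837966, plus strand), had 0.165, 0.211 and 0.438 TPM in KO2 libraries, against 27.9, 21.7 and 26.8 TPM in KO1 libraries. KO2 alone was near 0, since WT libraries had 25.8, 28.9 and 26.7 TPM (log2 difference -4.38, SE 0.17, limma adjusted p = 0.000362, and -4.48 at equal index, adjusted p = 2.47e-07). Gabrp, a GABA receptor subunit of epithelial tissues (chromosome 11, 33550781 to 33578959, minus strand), had 0.782, 1.96 and 0.963 TPM in KO2 libraries, against 40.4, 29.8 and 28.3 TPM in KO1 libraries, with 102, 69.8 and 68.9 TPM in WT libraries (log2 difference -3.94, SE 0.24, limma adjusted p = 0.000725, and -4.44 at equal index, adjusted p = 7.10e-07). Gpx2, a glutathione peroxidase of gut epithelium (chromosome 12, 76792333 to 76795554, minus strand), had 1.74, 1.56 and 1.9995 TPM in KO2 libraries, against 32.3, 59.6 and 42.7 TPM in KO1 libraries, with 66.5, 74.1 and 61.9 TPM in WT libraries (log2 difference -4.01, SE 0.22, limma adjusted p = 0.000646, and -3.74 at equal index, adjusted p = 0.000122). For all 3 genes KO2 stood apart from both KO1 and WT.

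Pigr, the receptor that carries polymeric antibodies across epithelia, had 0.818, 1.497 and 1.53 TPM in KO2 libraries, against 21.6, 52.7 and 30.0 TPM in KO1 libraries (log2 difference -3.89, SE 0.33, limma adjusted p = 0.00153, and -3.61 at equal index, adjusted p = 7.85e-05). Hkdc1, a hexokinase-like gene, had 2.60, 2.41 and 2.98 TPM in KO2 libraries, against 37.5, 57.0 and 49.0 TPM in KO1 libraries (log2 difference -3.72, SE 0.17, limma adjusted p = 0.000362, and -3.69 at equal index, adjusted p = 2.34e-05). Arhgef16, an exchange factor for small GTPases, had 2.12, 1.11 and 1.46 TPM in KO2 libraries, against 25.4, 37.0 and 31.2 TPM in KO1 libraries (log2 difference -3.65, SE 0.20, limma adjusted p = 0.000646, and -3.28 at equal index, adjusted p = 0.000249). Both genes were within a narrow range in each clone. Gprc5c, a retinoic acid-inducible receptor, had 0.310, 0.419 and 0.673 TPM in KO2 libraries, against 39.9, 53.7 and 42.9 TPM in KO1 libraries (log2 difference -4.98, SE 0.17, limma adjusted p = 0.000362, and -3.03 at equal index, adjusted p = 0.0042). The rest of this ranking were Ildr2 (-3.28 in the 6 libraries, -3.65 at equal index), Kcne3, a potassium channel subunit (-3.04 and -3.21), Prap1 (-2.92 and -3.14), Cldn14, a tight junction claudin (-2.54 and -3.10), Gc, the vitamin D-binding protein (-2.25 and -2.94), Bcl2l15 (-2.00 and -3.42), and the class I-like genes H2-Q7 and H2-Q8. Bcl2l15 lost its limma call in the 6 libraries without KO1 replicate 3 (adjusted p = 0.0565).

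No gene was at 5 TPM or more in every KO2 library and under 0.5 TPM in every KO1 library, while 10 genes met the reverse rule. They were Urah, Ildr2, Ogfod2, Megf6, Taar4, Mir6403, Rnase2a and the C-type lectin genes Cd209a, Cd209b and Cd209e. Ogfod2 had 0.165, 0.365 and 0.389 TPM in KO2 libraries, against 5.86, 11.5 and 10.5 TPM in KO1 libraries (log2 difference -2.94, SE 0.27, limma adjusted p = 0.00195, and -2.40 at equal index, adjusted p = 7.85e-05). Megf6, an EGF-repeat protein gene, had 0.282, 0.0277 and 0.249 TPM in KO2 libraries, against 5.02, 10.6 and 6.88 TPM in KO1 libraries (log2 difference -2.80, SE 0.28, limma adjusted p = 0.00222, and -2.56 at equal index, adjusted p = 0.000717). Taar4, a trace amine receptor of olfactory neurons (chromosome 10, 23960494 to 23961537, plus strand), was listed at 0 in all KO2 and all WT libraries and had 6.93, 6.30 and 6.11 TPM in KO1 libraries (limma adjusted p = 0.000646, and 3.91e-06 at equal index). It was the reverse of Urah, in that KO1 differed from both other groups. Cd209b (-0.64 at equal index, limma adjusted p = 0.318) and Mir6403 (-0.83, adjusted p = 0.609) did not pass at equal index. Cd209a lost its limma call at equal index without KO2 replicate 1 or 3 (adjusted p = 0.0555 to 0.11). Rnase2a lost its limma call at equal index without KO2 replicate 3 or KO1 replicate 1 or 3 (adjusted p = 0.0509 to 0.0978).

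The WT level was nearer to that of KO1 than to that of KO2 for most called genes. By the distance between group means on the log2 scale, WT lay nearer to KO1 for 257 of the 314 genes higher in both fits (81.8%) and for 515 of the 672 lower in both (76.6%), against 60.3% of all genes tested. For 57 and 157 of them WT lay nearer to KO2. These distances were taken without correction for the macrophage index, which in WT overlapped that of KO1 and not that of KO2.

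Interferon gamma response genes were lower in KO2. Interferon gamma, made by T and NK cells, acts through its receptor on promoters with GAS elements, and through IRF factors on ISRE elements. Of 23 genes tested, 21 were lower in KO2 and none was higher (median -1.08), and 11 were lower at equal index (median -0.99). Both clones were above WT for Cxcl9 and Ubd. Cxcl9, a chemokine induced by interferon gamma, had 36.8, 33.5 and 66.9 TPM in KO2 libraries, against 121, 124 and 150.1 TPM in KO1 libraries, with 10.3, 4.02 and 1.90 TPM in WT libraries (log2 difference -1.57, SE 0.26, limma adjusted p = 0.00816, and -2.14 at equal index, adjusted p = 0.0287). Ubd, a ubiquitin-like modifier, had 13.8, 11.996 and 18.4 TPM in KO2 libraries, against 48.9, 46.2 and 53.9 TPM in KO1 libraries, with 0.974, 0.238 and 0.692 TPM in WT libraries (log2 difference -1.70, SE 0.16, limma adjusted p = 0.00201, and -1.37 at equal index, adjusted p = 0.0241). In these genes the KO2 libraries lay below the KO1 libraries without overlap. T and NK cell markers, which summed to 4.75 to 7.85 TPM in KO2, 9.37 to 20.7 TPM in KO1 and 4.71 to 11.7 TPM in WT, moved with these genes between the clones, and their part was not tested. Cxcl9 lost its limma call at equal index without KO2 replicate 1 or KO1 replicate 1 or 3 (adjusted p = 0.0523 to 0.0636). Ubd lost its limma call at equal index without KO2 replicate 1 or KO1 replicate 1 (adjusted p = 0.0508 to 0.0861).

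The promoter windows of some immunity-related GTPases and a guanylate-binding protein are printed. These induced genes were called lower in KO2 in the 6 libraries, and were picked among list members whose window holds an ISRE match. The window of Gbp2 has no GAS match. The windows run from 250 bases before to 50 after the start (RefSeq, GRCm38.p6), 5′ to 3′ on the gene's strand, with matches to the ISRE core GAAANNGAAA or the GAS letters TTCNNNGAA on either strand in capitals. They are Igtp (chr11:58199306-58199605, plus strand), Irgm2 (chr11:58214727-58215026, plus strand), Tgtp2 (chr11:49064163-49064462, minus strand) and Gbp2 (chr3:142620413-142620712, plus strand).
Igtp: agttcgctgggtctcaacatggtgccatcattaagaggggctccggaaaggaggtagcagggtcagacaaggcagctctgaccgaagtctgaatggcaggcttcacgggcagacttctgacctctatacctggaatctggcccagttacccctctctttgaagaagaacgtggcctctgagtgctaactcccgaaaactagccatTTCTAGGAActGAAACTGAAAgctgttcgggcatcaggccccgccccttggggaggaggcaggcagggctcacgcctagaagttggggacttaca
Irgm2: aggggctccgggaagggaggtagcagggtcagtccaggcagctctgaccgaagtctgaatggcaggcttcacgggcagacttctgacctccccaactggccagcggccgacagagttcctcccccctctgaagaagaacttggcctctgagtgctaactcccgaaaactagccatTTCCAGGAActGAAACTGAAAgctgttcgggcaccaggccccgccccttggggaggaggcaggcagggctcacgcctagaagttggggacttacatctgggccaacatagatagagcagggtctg
Tgtp2: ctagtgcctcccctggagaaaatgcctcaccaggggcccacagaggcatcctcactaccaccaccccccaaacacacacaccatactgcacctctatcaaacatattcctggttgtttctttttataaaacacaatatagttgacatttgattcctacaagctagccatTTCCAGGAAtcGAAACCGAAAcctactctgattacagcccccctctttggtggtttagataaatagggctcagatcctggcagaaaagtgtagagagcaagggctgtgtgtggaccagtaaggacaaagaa
Gbp2: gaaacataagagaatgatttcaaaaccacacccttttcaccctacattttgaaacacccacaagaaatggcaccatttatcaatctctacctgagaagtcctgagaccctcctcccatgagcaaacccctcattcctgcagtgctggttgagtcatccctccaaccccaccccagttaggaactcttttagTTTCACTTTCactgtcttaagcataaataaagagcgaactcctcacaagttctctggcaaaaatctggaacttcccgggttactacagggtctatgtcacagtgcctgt
In Igtp, Irgm2 and Tgtp2 the GAS match began 11 bases before the ISRE match and shared no base with it. Joined, these letters are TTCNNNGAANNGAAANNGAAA, which was noticed in these windows and then searched on both strands in all 32851 windows of the table. It was found in 5 of them (0.0152%), those of Igtp, Irgm2, Tgtp1, Tgtp2 and Gm12185. The ISRE core alone was in 3.44% of all windows and the GAS letters in 8.30%. Of the 16 interferon gamma genes with a window, 11 held the ISRE core and 8 the GAS letters. A match is a description of the sequence and not a measured binding site.

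Of these genes, Tgtp2 had 29.9, 36.4 and 49.0 TPM in KO2 libraries, against 94.0, 78.7 and 91.4 TPM in KO1 libraries, with 7.35, 1.64 and 1.55 TPM in WT libraries (log2 difference -1.20, SE 0.18, limma adjusted p = 0.00594, and -1.96 at equal index, adjusted p = 0.0212). Irgm2 had 24.5, 25.7 and 29.2 TPM in KO2 libraries, against 37.3, 43.2 and 44.4 TPM in KO1 libraries (log2 difference -0.63, SE 0.11, limma adjusted p = 0.0092, and -0.67 at equal index, adjusted p = 0.0326). Igtp had 53.2, 48.2 and 74.0 TPM in KO2 libraries, against 94.4, 115 and 123 TPM in KO1 libraries (log2 difference -0.93, SE 0.18, limma adjusted p = 0.013, and -0.66 at equal index, adjusted p = 0.14). The clones did not overlap in any of the 3, and the difference of Igtp did not pass at equal index. Gbp2 had 123, 92.5 and 174 TPM in KO2 libraries, against 273, 256 and 315 TPM in KO1 libraries (log2 difference -1.15, SE 0.22, limma adjusted p = 0.0129, and -1.09 at equal index, adjusted p = 0.0974), and Gm12185, at 1.10, 1.65 and 1.34 TPM in KO2 libraries, against 2.57, 1.87 and 2.49 TPM in KO1 libraries, was not called (log2 difference -0.49, SE 0.20, limma adjusted p = 0.119, and -0.80 at equal index, adjusted p = 0.0727). Tgtp1 and Tgtp2 are close copies, so the split of reads between them is uncertain. Tgtp2 lost its limma call at equal index without KO2 replicate 1 or KO1 replicate 1 (adjusted p = 0.0501 to 0.0544). Irgm2 lost its limma call at equal index without KO2 replicate 1 or KO1 replicate 2 or 3 (adjusted p = 0.0511 to 0.0736). Igtp lost its limma call in the 6 libraries without KO2 replicate 1 or KO1 replicate 2 or 3 (adjusted p = 0.0527 to 0.0614). Gbp2 lost its limma call in the 6 libraries without KO2 replicate 1 or KO1 replicate 3 (adjusted p = 0.0514 to 0.0619).

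Type I interferon response genes were also lower in the 6 libraries, 23 of 30 with none higher (median -0.82), but 4 were lower at equal index (median -0.41). Those 4 were Stat2, Rsad2, Parp14 and Xaf1. Rsad2, the antiviral protein viperin, had 1.41, 0.831 and 2.25 TPM in KO2 libraries, against 9.06, 10.96 and 8.87 TPM in KO1 libraries (log2 difference -2.12, SE 0.24, limma adjusted p = 0.00324, and -1.60 at equal index, adjusted p = 0.0175). The RNA sensor gene Dhx58 (-1.50 in the 6 libraries) stood at 0.29 at equal index (limma adjusted p = 0.554). Its difference thus changed sign with the index in the model. Rsad2 lost its limma call at equal index without KO1 replicate 1 (adjusted p = 0.0652). Dhx58 lost its limma call in the 6 libraries without KO2 replicate 1, 2 or 3 or KO1 replicate 2 or 3 (adjusted p = 0.0513 to 0.0797). Stat2 lost its limma call at equal index without KO2 replicate 1 or 3 or KO1 replicate 3 (adjusted p = 0.05 to 0.0596). Xaf1 lost its limma call in the 6 libraries without KO2 replicate 1 or KO1 replicate 2 (adjusted p = 0.0628 to 0.0686).

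Genes of antigen presentation by MHC class I, which displays peptides on the surface of most cells, were lower in KO2. Of 21 tested, 16 were lower (median -0.93) and 8 at equal index (median -0.78), and none was higher in either fit. The members did not all fall: the highest difference among them was 1.37 in the 6 libraries, which was not called. Another limit is that 1 member was at 0 in all KO1 libraries. H2-K1, the class I heavy chain (chromosome 17, 33996017 to 34000347, minus strand), had 966, 798 and 1267 TPM in KO2 libraries, against 3026, 3778 and 3610.2 TPM in KO1 libraries, with 628, 561 and 673 TPM in WT libraries (log2 difference -1.80, SE 0.18, limma adjusted p = 0.00222, and -1.15 at equal index, adjusted p = 0.00776). Nlrc5, the transcriptional activator of class I genes, had 6.75, 6.53 and 9.05 TPM in KO2 libraries, against 22.2, 27.6 and 28.0 TPM in KO1 libraries, with 3.76, 3.14 and 3.73 TPM in WT libraries (log2 difference -1.68, SE 0.16, limma adjusted p = 0.00205, and -1.33 at equal index, adjusted p = 0.00347). Tap1, which moves peptides into the endoplasmic reticulum, had 29.4, 22.8 and 41.8 TPM in KO2 libraries, against 101, 123 and 142 TPM in KO1 libraries (log2 difference -1.96, SE 0.23, limma adjusted p = 0.0036, and -1.33 at equal index, adjusted p = 0.0176). In these genes KO1 was the highest of the 3 groups and KO2 lay between KO1 and WT. The immunoproteasome gene Psmb8 (-2.05 in the 6 libraries and -1.49 at equal index) passed in both fits, and Psmb9 (-2.11 in the 6 libraries and -1.11 at equal index, limma adjusted p = 0.0745) did not pass in the second. B2m, the light chain, had 1340.3, 1763 and 1745 TPM in KO2 libraries, against 3712, 3834 and 3624 TPM in KO1 libraries (log2 difference -1.21, SE 0.11, limma adjusted p = 0.00204, and -1.16 at equal index, adjusted p = 0.0217). B2m lost its limma call at equal index without KO2 replicate 1 or KO1 replicate 1 (adjusted p = 0.0509 to 0.07). Psmb8 lost its limma call at equal index without KO2 replicate 1 or 2 or KO1 replicate 1, 2 or 3 (adjusted p = 0.0575 to 0.119).

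The nonclassical class I genes of the Q region had still larger differences, but they are near-identical copies and their separate values are uncertain. H2-Q7 (chromosome 17, 35439155 to 35443773, plus strand) had 1.06, 1.13 and 2.36 TPM in KO2 libraries, against 37.7, 39.2 and 58.5 TPM in KO1 libraries, with 3.19, 1.84 and 3.16 TPM in WT libraries (log2 difference -4.21, SE 0.26, limma adjusted p = 0.000725, and -3.86 at equal index, adjusted p = 2.34e-05). H2-Q8 was listed at 0, 0 and 7.04 TPM in KO2 libraries, against 93.5, 87.3 and 106 TPM in KO1 libraries, and at 0, 3.55 and 2.09 TPM in WT libraries (limma adjusted p = 0.00521, and 0.00983 at equal index). H2-Q5, chosen after its values were seen, had 5.03, 6.44 and 8.19 TPM in KO2 libraries, against 34.7, 50.5 and 49.0 TPM in KO1 libraries (log2 difference -2.60, SE 0.21, limma adjusted p = 0.00149, and -2.25 at equal index, adjusted p = 0.00181). In all 3 genes KO1 stood above both KO2 and WT. MHC class II genes, which professional antigen-presenting cells use, were lower in the 6 libraries for 8 of 8 tested (median -2.23), and none passed at equal index (median -0.42). H2-Aa, a class II chain, had 134, 69.3 and 225 TPM in KO2 libraries, against 379.6, 764 and 793 TPM in KO1 libraries and a difference of -0.07 at equal index (limma adjusted p = 0.922). H2-Aa lost its limma call in the 6 libraries without KO2 replicate 1 or KO1 replicate 2 or 3 (adjusted p = 0.0581 to 0.0739).

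Genes of epithelial junctions and adhesion were lower in KO2, 14 of 25 in the 6 libraries and 11 at equal index, with none higher (medians -0.53 and -0.64). Epcam, an epithelial adhesion molecule (chromosome 17, 87635979 to 87651129, plus strand), had 20.2, 34.1 and 26.2 TPM in KO2 libraries, against 87.7, 199 and 149.9 TPM in KO1 libraries, with 273, 237 and 236 TPM in WT libraries (log2 difference -2.35, SE 0.32, limma adjusted p = 0.00471, and -2.11 at equal index, adjusted p = 0.0115). Spint1, an inhibitor of membrane serine proteases (chromosome 2, 119237362 to 119249527, plus strand), had 1.13, 2.30 and 1.60 TPM in KO2 libraries, against 11.7, 22.7 and 25.03 TPM in KO1 libraries, with 24.1, 24.1 and 18.2 TPM in WT libraries (log2 difference -2.92, SE 0.31, limma adjusted p = 0.00285, and -2.07 at equal index, adjusted p = 0.00874). Cldn4, a tight junction claudin, had 0.229, 0.117 and 0.162 TPM in KO2 libraries, against 4.31, 6.94 and 8.08 TPM in KO1 libraries, with 15.7, 15.2 and 14.6 TPM in WT libraries (log2 difference -2.64, SE 0.24, limma adjusted p = 0.00201, and -1.86 at equal index, adjusted p = 0.00331). By group means KO2 was lowest, then KO1, then WT, and for Epcam and Cldn4 no libraries overlapped between groups. Cdh1, E-cadherin, had 421, 434 and 421 TPM in KO2 libraries, against 536, 495 and 568 TPM in KO1 libraries, a small difference (log2 difference -0.32, SE 0.07, limma adjusted p = 0.0182, and -0.64 at equal index, adjusted p = 0.00355). Elf3, an epithelial transcription factor, fell to 58.7, 75.5 and 57.5 TPM in KO2 libraries, against 101, 141 and 148 TPM in KO1 libraries (log2 difference -1.01, SE 0.17, limma adjusted p = 0.00929, and -0.92 at equal index, adjusted p = 0.031). Cdh1 lost its limma call in the 6 libraries without KO2 replicate 1 or 3 or KO1 replicate 3 (adjusted p = 0.0684 to 0.0738). Elf3 lost its limma call at equal index without KO2 replicate 1 or 3 or KO1 replicate 3 (adjusted p = 0.0586 to 0.0965).

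Of 10 keratins, the intermediate filaments of epithelial cells, 2 were higher and 2 lower in the 6 libraries, and at equal index 1, Krt7, was lower. Krt7, a keratin of ducts, had 373, 374 and 371 TPM in KO2 libraries, against 799, 844 and 852 TPM in KO1 libraries (log2 difference -1.16, SE 0.06, limma adjusted p = 0.000396, and -1.22 at equal index, adjusted p = 0.03). Krt20, a keratin of gut epithelium, had 481, 524 and 487 TPM in KO2 libraries, against 287, 331 and 326 TPM in KO1 libraries (log2 difference 0.66, SE 0.08, limma adjusted p = 0.0036, and 0.51 at equal index, adjusted p = 0.209). Krt8, among the most abundant at 4387 ± 183 TPM in KO2 and 3697 ± 238 TPM in KO1 (SD, n = 3 each), did not pass (log2 difference 0.25, SE 0.07, limma adjusted p = 0.052), nor did Krt19 (log2 difference -0.20, SE 0.07, limma adjusted p = 0.0904). Krt7 lost its limma call at equal index without KO2 replicate 1 or 3 or KO1 replicate 1 or 3 (adjusted p = 0.0528 to 0.0702).

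Mesenchymal genes were mixed, with 5 of 18 higher and 3 lower in the 6 libraries, and 2 higher and 2 lower at equal index (medians 0.05 and -0.13). All genes gave 7.28% higher and 17.5% lower in the 6 libraries, so the share called lower was near that of all genes. Besides Twist1, the rises were S100a4, a calcium-binding protein of motile cells, Vim, Zeb1 and Cdh2. S100a4 had 1115, 1342 and 1119 TPM in KO2 libraries, against 684, 456 and 455 TPM in KO1 libraries (log2 difference 1.19, SE 0.17, limma adjusted p = 0.00561, and 1.30 at equal index, adjusted p = 0.0383). Zeb1, a repressor of epithelial genes, had 20.7, 24.3 and 21.8 TPM in KO2 libraries, against 14.6, 9.91 and 12.5 TPM in KO1 libraries (log2 difference 0.82, SE 0.15, limma adjusted p = 0.0122, and 0.17 at equal index, adjusted p = 0.601). Zeb1 and the N-cadherin gene Cdh2 lie on chromosome 18, where most genes were higher in KO2, and neither passed at equal index. Vim, the mesenchymal intermediate filament, had 4026, 4005 and 3669 TPM in KO2 libraries, against 3007, 2543 and 2769 TPM in KO1 libraries (log2 difference 0.49, SE 0.08, limma adjusted p = 0.00879, and 0.32 at equal index, adjusted p = 0.087). The falls in the 6 libraries, Tgfbi, Mmp2 and Zeb2, did not pass at equal index (-0.38, -0.93 and -0.81). Macrophages and fibroblasts express these 3 genes too, and the markers of both cell types moved with them; their part was not tested further. S100a4 lost its limma call at equal index without KO2 replicate 1, 2 or 3 or KO1 replicate 2 or 3 (adjusted p = 0.0561 to 0.0719). Zeb1 lost its limma call in the 6 libraries without KO2 replicate 3 or KO1 replicate 3 (adjusted p = 0.0509 to 0.053). Cdh2 lost its limma call in the 6 libraries without KO2 replicate 1, 2 or 3 or KO1 replicate 2 or 3 (adjusted p = 0.0779 to 0.12). Zeb2 lost its limma call in the 6 libraries without KO1 replicate 3 (adjusted p = 0.0535).

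Gastric and related secreted proteins split in both directions, with 4 of 18 higher and 5 lower in the 6 libraries and 3 higher and 4 lower at equal index. Tff1, Tff2 and the gastric mucin Muc5ac rose in both fits. Muc5ac had 2.46, 1.48 and 5.55 TPM in KO2 libraries, against 0.138, 0.232 and 0.346 TPM in KO1 libraries (log2 difference 1.63, SE 0.37, limma adjusted p = 0.0222, and 2.25 at equal index, adjusted p = 0.0174). The gastric protein Gkn1 had 3.67, 4.12 and 4.41 TPM in KO2 libraries, against 17.5, 40.7 and 17.8 TPM in KO1 libraries, with 81.6, 97.7 and 110.0 TPM in WT libraries (log2 difference -2.27, SE 0.32, limma adjusted p = 0.00525, and -1.08 at equal index, adjusted p = 0.192). The membrane mucin Muc1 fell to 201, 197 and 193 TPM in KO2 libraries, against 342, 510.4 and 431 TPM in KO1 libraries (log2 difference -1.09, SE 0.14, limma adjusted p = 0.004, and -1.27 at equal index, adjusted p = 0.0255). Muc4, another membrane mucin, had 0.379, 0.366 and 0.380 TPM in KO2 libraries, against 1.57, 4.14 and 2.90 TPM in KO1 libraries (log2 difference -1.44, SE 0.29, limma adjusted p = 0.0147, and -1.54 at equal index, adjusted p = 0.0161). Muc1 and Muc4 were named after their values were seen. Muc5ac lost its limma call in the 6 libraries without KO2 replicate 1 or KO1 replicate 2 or 3 (adjusted p = 0.0639 to 0.0698). Muc5ac lost its limma call at equal index without KO2 replicate 3 or KO1 replicate 1 (adjusted p = 0.0512 to 0.0556). Muc1 lost its limma call at equal index without KO2 replicate 3 (adjusted p = 0.0623). Muc4 lost its limma call in the 6 libraries without KO2 replicate 1 or 3 or KO1 replicate 3 (adjusted p = 0.051 to 0.06).

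Of 18 transcription factors of endoderm and duct, 3 were higher and 3 lower in the 6 libraries, and 0 were higher and 2 lower at equal index (medians 0.07 and -0.10). The share called lower in the 6 libraries was near the 17.5% of all genes, of which 7.28% were higher. Gata6, a factor of classical pancreatic tumors located on chromosome 18, had 62.9, 60.6 and 59.8 TPM in KO2 libraries, against 44.1, 39.7 and 43.0 TPM in KO1 libraries (log2 difference 0.52, SE 0.08, limma adjusted p = 0.00559). Pdx1, a pancreatic master regulator, had 83.9, 98.2 and 88.8 TPM in KO2 libraries, against 57.2, 63.0 and 68.2 TPM in KO1 libraries (log2 difference 0.52, SE 0.10, limma adjusted p = 0.012). Neither passed at equal index (limma adjusted p = 0.0606 and 0.0739). Spdef, a factor of goblet cells, fell to 0.136, 0.522 and 0.442 TPM in KO2 libraries, against 3.13, 3.61 and 3.46 TPM in KO1 libraries (log2 difference -1.70, SE 0.20, limma adjusted p = 0.0036, and -1.27 at equal index, adjusted p = 0.00856). Klf5, a factor of epithelial progenitors, did not pass (log2 difference -0.13, SE 0.08, limma adjusted p = 0.305). Among basal-like and squamous genes, 3 of 8 were higher and 3 lower. Sprr1a, a cornified envelope precursor, had 430.0, 475 and 475 TPM in KO2 libraries, against 190.2, 173 and 164 TPM in KO1 libraries, with 675, 596 and 700.3 TPM in WT libraries (log2 difference 1.38, SE 0.08, limma adjusted p = 0.000646, and 1.30 at equal index, adjusted p = 4.83e-05). The laminin chain gene Lamb3, on chromosome 1, was lower in KO2 in the 6 libraries (-1.03 in the 6 libraries and -1.20 at equal index). Pdx1 lost its limma call in the 6 libraries without KO2 replicate 3 (adjusted p = 0.0504). Lamb3 did not pass at equal index (limma adjusted p = 0.0569).

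Antioxidant and drug metabolism genes, many of them targets of the stress sensor NRF2, included 13 of 30 that were higher in KO2 and 5 that were lower. All genes gave 7.28% and 17.5%. At equal index, 7 were higher and 2 lower (medians 0.22 in the 6 libraries and 0.38 at equal index). Gstm1, a glutathione transferase (chromosome 3, 108012255 to 108017973, minus strand), had 515, 599.6 and 534 TPM in KO2 libraries, against 198, 247 and 209.9 TPM in KO1 libraries, with 212, 203 and 195 TPM in WT libraries (log2 difference 1.33, SE 0.10, limma adjusted p = 0.00142, and 1.41 at equal index, adjusted p = 0.00306). Aldh3a1, an aldehyde dehydrogenase, had 139, 143 and 148 TPM in KO2 libraries, against 53.9, 52.1 and 68.6 TPM in KO1 libraries (log2 difference 1.29, SE 0.11, limma adjusted p = 0.00179, and 1.32 at equal index, adjusted p = 0.00106). Gsta1, another glutathione transferase, had 191, 251 and 191 TPM in KO2 libraries, against 52.6, 79.7 and 92.2 TPM in KO1 libraries (log2 difference 1.51, SE 0.22, limma adjusted p = 0.00556, and 2.58 at equal index, adjusted p = 0.0223). KO2 was the highest of the 3 groups in each, and KO1 and WT libraries overlapped. Gsta1 lost its limma call at equal index without KO1 replicate 1 (adjusted p = 0.085).

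Aldh1a1, which makes retinoic acid, had 74.6, 87.3 and 77.8 TPM in KO2 libraries, against 25.04, 30.6 and 26.3 TPM in KO1 libraries (log2 difference 1.52, SE 0.11, limma adjusted p = 0.00103, and 1.57 at equal index, adjusted p = 0.142). Its relative Aldh1a7 passed in both fits (1.72 in the 6 libraries and 1.70 at equal index). Adh7, an alcohol dehydrogenase of the stomach named after its values were seen, had 116, 141 and 104 TPM in KO2 libraries, against 32.2, 41.2 and 31.2 TPM in KO1 libraries, with 28.0, 22.9 and 16.9 TPM in WT libraries (log2 difference 1.76, SE 0.15, limma adjusted p = 0.00166, and 2.09 at equal index, adjusted p = 0.0122). Slc7a11, the cystine transporter, had 13.0, 28.5 and 15.3 TPM in KO2 libraries, against 4.28, 3.51 and 3.69 TPM in KO1 libraries (log2 difference 1.97, SE 0.28, limma adjusted p = 0.00535, and 1.01 at equal index, adjusted p = 0.177). The canonical targets Nqo1 (1.39 in the 6 libraries and 1.09 at equal index) and Gclc (0.87 in the 6 libraries and 0.49 at equal index) were called in the 6 libraries and not at equal index (adjusted p = 0.0684 and 0.154), and Txnrd1 did not pass (log2 difference -0.25, SE 0.12, limma adjusted p = 0.201). In the other direction, Gpx2, described above, and the glutathione transferase Gsta3 fell in both fits. Hmox1, the heme oxygenase that macrophages express strongly, had 26.4, 26.7 and 31.1 TPM in KO2 libraries, against 123, 383 and 229 TPM in KO1 libraries (log2 difference -2.94, SE 0.38, limma adjusted p = 0.00399, and -0.68 at equal index, adjusted p = 0.189). Aldh1a7 lost its limma call at equal index without KO1 replicate 1 (adjusted p = 0.0674). Gsta3 lost its limma call at equal index without KO2 replicate 1 or KO1 replicate 1 (adjusted p = 0.0592 to 0.0897).

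In central metabolism single genes differed widely. The medians of the glycolysis, hypoxia and cholesterol synthesis lists lay 0.01 to 0.17 above that of all genes in the 6 libraries. At equal index they lay 0.06 to 0.22 above it, and 0.005 to 0.07 above it with quantile normalization. Among 18 glycolysis genes, 2 were higher and 4 lower (median 0.04). Slc16a3, the lactate exporter MCT4 (chromosome 11, 120948480 to 120960868, plus strand), had 4.33, 2.83 and 5.08 TPM in KO2 libraries, against 53.1, 71.3 and 58.3 TPM in KO1 libraries, with 53.6, 69.8 and 70.9 TPM in WT libraries (log2 difference -3.62, SE 0.20, limma adjusted p = 0.000646, and -2.11 at equal index, adjusted p = 0.00852). KO2 stood far below both other groups. Among 24 hypoxia response genes 3 were higher and 6 lower, against 7.28% and 17.5% of all genes. At equal index 2 were higher and 3 lower, against 3.19% and 7.59%. Ak4, a mitochondrial adenylate kinase, had 3.499, 3.83 and 4.32 TPM in KO2 libraries, against 0.879, 1.20 and 0.909 TPM in KO1 libraries (log2 difference 1.29, SE 0.18, limma adjusted p = 0.00471, and 1.56 at equal index, adjusted p = 0.000914). P4ha1, a collagen prolyl hydroxylase, fell to 26.2, 28.9 and 30.0 TPM in KO2 libraries, against 46.3, 58.3 and 47.5 TPM in KO1 libraries (log2 difference -0.81, SE 0.11, limma adjusted p = 0.00526, and -0.74 at equal index, adjusted p = 0.0348). P4ha1 lost its limma call at equal index without KO2 replicate 1 or 3 or KO1 replicate 1 (adjusted p = 0.0593 to 0.0772). Cholesterol and fatty acid synthesis genes (2 of 27 higher, 1 lower) passed in neither direction at equal index.

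Wnt and Notch signaling genes were lower in KO2 for 9 of 17 tested and higher for 3, and 8 were lower at equal index with none higher (medians -0.34 and -0.62). Wnt10a, a ligand (chromosome 1, 74791516 to 74804179, plus strand), had 38.6, 27.4 and 29.8 TPM in KO2 libraries, against 162, 98.8 and 117 TPM in KO1 libraries, with 53.002, 80.8 and 61.7 TPM in WT libraries (log2 difference -1.93, SE 0.21, limma adjusted p = 0.00285, and -2.26 at equal index, adjusted p = 0.000339). Wnt4, another ligand, had 5.04, 5.52 and 4.99 TPM in KO2 libraries, against 10.6, 10.3 and 13.1 TPM in KO1 libraries, with 17.8, 21.1 and 17.01 TPM in WT libraries (log2 difference -0.99, SE 0.14, limma adjusted p = 0.00504, and -1.13 at equal index, adjusted p = 0.00278). Axin2, a feedback target that reads out the canonical pathway, had 1.45, 1.69 and 1.17 TPM in KO2 libraries, against 8.03, 6.58 and 6.61 TPM in KO1 libraries, with 1.85, 2.70 and 2.80 TPM in WT libraries (log2 difference -1.73, SE 0.17, limma adjusted p = 0.00222, and -1.43 at equal index, adjusted p = 0.0195). For Wnt10a, Wnt4 and Axin2 the KO2 libraries lay below all KO1 and WT libraries. KO1 libraries lay above WT for Wnt10a and Axin2 and below WT for Wnt4. The ligand Wnt7b (-1.18 in the 6 libraries and -1.35 at equal index) and the receptor-degrading ligase Rnf43 (-1.13 in the 6 libraries and -1.06 at equal index) fell in both fits. Axin2 lost its limma call at equal index without KO2 replicate 3 or KO1 replicate 1 (adjusted p = 0.0632 to 0.0923). Wnt7b lost its limma call at equal index without KO1 replicate 1 (adjusted p = 0.0881). Rnf43 lost its limma call at equal index without KO2 replicate 3 (adjusted p = 0.0582).

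TGF-beta and BMP signaling genes were higher for 6 of 17 tested and lower for 1 in the 6 libraries. Of the 6, the signal transducers Smad2, Smad4 and Smad7 lie on chromosome 18. Smad4 had 66.8, 79.4 and 68.3 TPM in KO2 libraries, against 56.6, 47.3 and 48.6 TPM in KO1 libraries (log2 difference 0.48, SE 0.11, limma adjusted p = 0.0201, and 0.02 at equal index, adjusted p = 0.947). Smad7 alone of the list was higher at equal index. Of 25 genes of the EGFR family, Ras and ERK output, 2 were higher and 2 lower in the 6 libraries, and 1 was higher and 2 lower at equal index. The share called higher in the 6 libraries was near the 7.28% of all genes. The higher genes, Hbegf and Spry4, both lie on chromosome 18. Spry4, a feedback inhibitor of ERK signaling, had 24.2, 27.9 and 24.0 TPM in KO2 libraries, against 14.0, 13.2 and 12.2 TPM in KO1 libraries (log2 difference 0.90, SE 0.11, limma adjusted p = 0.0036, and 0.62 at equal index, adjusted p = 0.0103). The lower genes were the receptor gene Erbb3 (log2 difference -1.21, SE 0.23, limma adjusted p = 0.0126, and -0.86 at equal index, adjusted p = 0.0653) and the ligand gene Nrg1 (log2 difference -0.83, SE 0.22, limma adjusted p = 0.0349, and -0.45 at equal index, adjusted p = 0.246), neither of which passed at equal index. Smad2 lost its limma call in the 6 libraries without KO2 replicate 3 or KO1 replicate 3 (adjusted p = 0.0588 to 0.0652). Smad4 lost its limma call in the 6 libraries without KO2 replicate 1 or 3 or KO1 replicate 2 or 3 (adjusted p = 0.0501 to 0.0819). Smad7 lost its limma call in the 6 libraries without KO2 replicate 3 (adjusted p = 0.0562). Smad7 lost its limma call at equal index without KO2 replicate 1, 2 or 3 or KO1 replicate 1, 2 or 3 (adjusted p = 0.0558 to 0.122). Erbb3 lost its limma call in the 6 libraries without KO2 replicate 3 or KO1 replicate 3 (adjusted p = 0.0534 to 0.0616). Nrg1 lost its limma call in the 6 libraries without KO2 replicate 1, 2 or 3 or KO1 replicate 2 or 3 (adjusted p = 0.0705 to 0.1).

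Chemokine genes were lower for 19 of 22 tested (median -1.55), and at equal index 6 were lower and 1 higher (median -0.40). Among the 19 was Ccl6, a chemokine of myeloid cells, with 31.7, 21.2 and 43.3 TPM in KO2 libraries, against 315, 1102 and 751 TPM in KO1 libraries and a difference of -0.45 at equal index (limma adjusted p = 0.196). Cxcl17, a chemokine of mucosal epithelium (chromosome 7, 25400053 to 25412886, minus strand), had 15.5, 15.9 and 15.3 TPM in KO2 libraries, against 83.3, 82.7 and 68.5 TPM in KO1 libraries, with 56.2, 52.9 and 45.0 TPM in WT libraries (log2 difference -2.25, SE 0.10, limma adjusted p = 0.000362, and -2.86 at equal index, adjusted p = 0.001). The summed macrophage markers differed 3.66-fold among the same KO1 libraries. Apart from the fit at equal index, the part of macrophages in these chemokine differences was not tested. Il18r1, the interleukin 18 receptor, chosen after its values were seen and located on chromosome 1, had 8.40, 7.86 and 7.53 TPM in KO2 libraries, against 49.6, 33.2 and 33.0 TPM in KO1 libraries (log2 difference -2.12, SE 0.17, limma adjusted p = 0.00151, and -2.56 at equal index, adjusted p = 0.00262). Of 15 complement and acute phase genes, 10 were lower and 2 higher, and 4 were lower at equal index. Lcn2, an iron-scavenging acute phase protein of epithelia (chromosome 2, 32384633 to 32388252, minus strand), had 12.2, 12.9 and 18.5 TPM in KO2 libraries, against 114, 105 and 97.4 TPM in KO1 libraries, with 98.6, 127 and 84.2 TPM in WT libraries (log2 difference -2.80, SE 0.16, limma adjusted p = 0.000646, and -2.79 at equal index, adjusted p = 7.85e-05). KO2 lay below both KO1 and WT in Lcn2 and in Cxcl17.

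Immediate early genes, which rise within minutes of stimulation or tissue dissociation, were lower for 18 of 23 tested and higher for none (median -0.99), and 6 were lower at equal index (median -0.54). Hspa1b, an inducible heat shock protein, had 47.5, 48.4 and 51.9 TPM in KO2 libraries, against 194, 233 and 222 TPM in KO1 libraries, with 187, 238 and 196 TPM in WT libraries (log2 difference -2.11, SE 0.09, limma adjusted p = 0.000362, and -2.48 at equal index, adjusted p = 0.000623). Hspa1a moved likewise (-2.87 in the 6 libraries and -2.49 at equal index), although the pair are near-identical copies and their separate values are uncertain. Fosb, a subunit of AP-1, had 7.26, 11.8 and 7.03 TPM in KO2 libraries, against 25.03, 73.7 and 54.4 TPM in KO1 libraries (log2 difference -2.33, SE 0.40, limma adjusted p = 0.00915, and -2.57 at equal index, adjusted p = 0.0171). Fosb lost its limma call at equal index without KO2 replicate 3 (adjusted p = 0.052).

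The unfolded protein response and ATF4 list, which holds chaperones of the endoplasmic reticulum, was lower for 8 of 20 and higher for 1 (median -0.40), with 5 lower at equal index (median -0.41). Sdf2l1, a chaperone cofactor, had 35.9, 32.4 and 38.3 TPM in KO2 libraries, against 80.5, 81.4 and 78.4 TPM in KO1 libraries (log2 difference -1.15, SE 0.08, limma adjusted p = 0.00115, and -0.80 at equal index, adjusted p = 0.00348). Hspa5, the chaperone BiP, had 385, 486 and 426 TPM in KO2 libraries, against 717, 625 and 595 TPM in KO1 libraries (log2 difference -0.58, SE 0.11, limma adjusted p = 0.0127, and -1.06 at equal index, adjusted p = 0.0167). Hspa5 lost its limma call in the 6 libraries without KO2 replicate 3 (adjusted p = 0.0534). Hspa5 lost its limma call at equal index without KO1 replicate 1 (adjusted p = 0.059). The sensor Atf6, on chromosome 1, was also lower (log2 difference -0.46, SE 0.11, limma adjusted p = 0.0251, and -0.79 at equal index, adjusted p = 0.00678). Atf6 lost its limma call in the 6 libraries without KO2 replicate 1 or 3 or KO1 replicate 2 or 3 (adjusted p = 0.06 to 0.102).

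Cell cycle and replication genes were called for 4 of 35 as higher and 1 as lower in the 6 libraries, and for 0 as higher and 4 as lower at equal index. The replication gene Mcm3, on chromosome 1, fell to 29.5, 30.6 and 28.3 TPM in KO2 libraries, against 57.2, 43.8 and 46.3 TPM in KO1 libraries (log2 difference -0.71, SE 0.12, limma adjusted p = 0.00816, and -0.94 at equal index, adjusted p = 0.00294). The proliferation marker Mki67 did not pass (log2 difference 0.15, SE 0.12, limma adjusted p = 0.415, and -0.61 at equal index, adjusted p = 0.108). Of 16 genes of the Cdkn2 locus and the p53 axis, Cdkn2b was higher and Cdkn1a lower, and none passed at equal index. The tumor suppressor gene Cdkn2a had 491, 513 and 544 TPM in KO2 libraries, against 521, 480.3 and 507 TPM in KO1 libraries (log2 difference 0.04, SE 0.07, limma adjusted p = 0.723), and Trp53 did not pass either (log2 difference -0.10, SE 0.09, limma adjusted p = 0.422). Cdkn2b lost its limma call in the 6 libraries without KO2 replicate 1, 2 or 3 or KO1 replicate 2 or 3 (adjusted p = 0.0852 to 0.144). Cdkn1a lost its limma call in the 6 libraries without KO2 replicate 1, 2 or 3 or KO1 replicate 2 or 3 (adjusted p = 0.0719 to 0.126).

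Genes that write, erase or read histone H3 lysine 9 methylation included 5 of 23 higher in KO2 in the 6 libraries, with Kdm3a the only one lower (median 0.06). At equal index 2 of these genes were higher and 1 lower (median -0.23, against -0.18 for all genes). The largest rise, that of Cbx5, did not pass at equal index (log2 difference 1.04, SE 0.22, limma adjusted p = 0.0186, and 0.11 at equal index, adjusted p = 0.856). Cbx5 lost its limma call in the 6 libraries without KO2 replicate 3 or KO1 replicate 2 or 3 (adjusted p = 0.0582 to 0.0789). For this list and the families below, all genes gave 7.28% higher and 17.5% lower in the 6 libraries. Ehmt2, the methyltransferase G9a, had 200.01, 188 and 190.4 TPM in KO2 libraries, against 125, 133 and 133 TPM in KO1 libraries, with 126, 147 and 122 TPM in WT libraries (log2 difference 0.56, SE 0.06, limma adjusted p = 0.00331, and 0.60 at equal index, adjusted p = 0.00908). The demethylase gene Kdm4b passed in both fits (0.44 in the 6 libraries and 0.56 at equal index). Kdm4b lost its limma call in the 6 libraries without KO2 replicate 1 or 3 or KO1 replicate 3 (adjusted p = 0.064 to 0.0669). Kdm4b lost its limma call at equal index without KO2 replicate 1, 2 or 3 or KO1 replicate 1, 2 or 3 (adjusted p = 0.0503 to 0.139). Gene families often silenced by chromatin were mostly below the filter: 1 of 25 germline genes was tested, 7 of 36 Hox genes, 12 of 31 imprinted genes and 9 of 29 clustered protocadherins. The tested germline gene, Rhox5, an X-linked homeobox gene, did not pass (log2 difference 0.14, SE 0.13, limma adjusted p = 0.49). Of the Hox genes 3 were lower in KO2, led by Hoxb6 with 11.6, 15.6 and 9.93 TPM in KO2 libraries, against 33.5, 36.3 and 36.1 TPM in KO1 libraries and 16.6, 18.9 and 16.7 TPM in WT libraries (log2 difference -1.46, SE 0.16, limma adjusted p = 0.00316, and -1.53 at equal index, adjusted p = 0.00562). Of the imprinted genes 2 were higher and 3 lower, among them the noncoding RNA gene Meg3 with 0.616, 0.911 and 0.419 TPM in KO2 libraries, against 4.28, 8.11 and 6.75 TPM in KO1 libraries (log2 difference -2.14, SE 0.26, limma adjusted p = 0.0036, and -1.61 at equal index, adjusted p = 0.0385). Meg3 lost its limma call at equal index without KO2 replicate 1 or 3 or KO1 replicate 1, 2 or 3 (adjusted p = 0.0509 to 0.113). The protocadherins lie on chromosome 18, and of 9 tested 2 were higher and 1 lower. Pcdhgc3, an adhesion molecule, had 65.5, 60.4 and 75.04 TPM in KO2 libraries, against 32.3, 24.3 and 27.5 TPM in KO1 libraries (log2 difference 1.23, SE 0.13, limma adjusted p = 0.00286, and 1.03 at equal index, adjusted p = 0.00273). Pcdhgb1 of the same cluster went the other way, with 2.84, 2.97 and 2.71 TPM in KO2 libraries, against 6.69, 4.56 and 7.53 TPM in KO1 libraries (log2 difference -0.90, SE 0.20, limma adjusted p = 0.0194, and -1.06 at equal index, adjusted p = 0.0329). Pcdhgb1 lost its limma call in the 6 libraries without KO2 replicate 1 or 3 or KO1 replicate 3 (adjusted p = 0.0662 to 0.0763). Pcdhgb1 lost its limma call at equal index without KO2 replicate 1 or 3 or KO1 replicate 1 or 3 (adjusted p = 0.0587 to 0.104).

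The remaining lists are set against all genes, of which 7.28% were called higher and 17.5% lower in the 6 libraries. Of 27 respiratory chain genes 4 were higher and 4 lower in the 6 libraries (median 0.01). At equal index 3 were higher and 0 lower (median 0.10, against -0.18 for all genes). Of the 4 lower in the 6 libraries, 3 lie on chromosome 1, among them Cox5b with 284, 308 and 292 TPM in KO2 libraries, against 477, 488 and 451 TPM in KO1 libraries (log2 difference -0.68, SE 0.06, limma adjusted p = 0.00201, and -0.18 at equal index, adjusted p = 0.605). Atp5a1, the alpha subunit of ATP synthase, on chromosome 18, was higher (log2 difference 0.45, SE 0.06, limma adjusted p = 0.00456, and 0.42 at equal index, adjusted p = 0.0205). Of 30 cytosolic ribosomal protein genes 1 was higher and 2 lower in the 6 libraries. The higher gene was Rps14 on chromosome 18, with 3423, 3190.4 and 3477 TPM in KO2 libraries, against 2393, 2289.8 and 2342 TPM in KO1 libraries (log2 difference 0.52, SE 0.06, limma adjusted p = 0.0036, and 0.61 at equal index, adjusted p = 0.00993). The lower genes were Rpl7 on chromosome 1 (log2 difference -0.37, SE 0.08, limma adjusted p = 0.0198, and -0.55 at equal index, adjusted p = 0.018) and Rps3 on chromosome 7 (log2 difference -0.34, SE 0.06, limma adjusted p = 0.0128, and -0.13 at equal index, adjusted p = 0.553). Atp5a1 lost its limma call at equal index without KO2 replicate 3 (adjusted p = 0.0632). Rpl7 lost its limma call in the 6 libraries without KO2 replicate 1, 2 or 3 or KO1 replicate 3 (adjusted p = 0.0511 to 0.0721). Rpl7 lost its limma call at equal index without KO1 replicate 1 (adjusted p = 0.0892). Rps3 lost its limma call in the 6 libraries without KO2 replicate 1 or KO1 replicate 3 (adjusted p = 0.0563 to 0.0607). Of 3 tested Ly6 genes 1 was lower in the 6 libraries and none at equal index, and Xist, the only tested gene of the Y-linked and X-inactivation list, did not pass (log2 difference -0.15, SE 0.32, limma adjusted p = 0.766).

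Differences between the clones varied by chromosome. Positions from GENCODE M21 were available for 10366 of the genes that averaged 5 TPM or more over the 6 libraries; their median difference was -0.03, with 8.26% called higher and 17.3% lower in KO2. On chromosome 18, 231 of 258 genes had a difference above 0, the median was 0.47, and 123 genes (47.7%) were called higher and 7 lower. On chromosome 1, 524 of 590 genes had a difference below 0, the median was -0.42, and 277 genes (46.9%) were called lower and 9 higher. Chromosome 10 had a median of -0.28, with 170 of 492 genes (34.6%) lower, and chromosome 8 a median of -0.21, with 186 of 609 (30.5%) lower. The other chromosomes had medians between -0.14 on chromosome 7 and 0.12 on chromosome 15. In both fits together, 28 genes of chromosome 18 were called higher and 0 lower, and 149 genes of chromosome 1 were called lower and 2 higher.

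The KO2 libraries lay apart from every KO1 and WT library on these 4 chromosomes. This was also so on other chromosomes, among them 15 and 17. Each library was set against the mean of the WT libraries gene by gene, and the median over a chromosome was taken relative to the median of that library. For chromosome 18 the values were 0.43, 0.47 and 0.43 in KO2 libraries, against 0.02, -0.10 and -0.09 in KO1 libraries and 0.12, -0.06 and -0.03 in WT libraries. For chromosome 1 they were -0.43, -0.38 and -0.41 in KO2 libraries, against 0.03, -0.04 and -0.03 in KO1 libraries and 0.07, -0.06 and -0.01 in WT libraries. Chromosome 10 gave -0.21, -0.24 and -0.21 in KO2 libraries, against 0.04, 0.04 and 0.03 in KO1 libraries. Chromosome 8 gave -0.22, -0.27 and -0.21 in KO2 libraries, against -0.04, -0.06 and -0.04 in KO1 libraries. For chromosomes 1, 8, 10 and 18 the KO1 values were all within 0.10 of 0. Chromosome 17 gave 0.23, 0.15 and 0.20 in KO2 libraries, against 0.02, 0.12 and 0.10 in KO1 libraries and -0.07, 0.07 and -0.01 in WT libraries. Chromosome 15 gave 0.11, 0.09 and 0.10 in KO2 libraries, against -0.05, -0.03 and -0.03 in KO1 libraries and -0.04, 0.06 and -0.003 in WT libraries. DNA copy number was not measured in these data.

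**Figure D4:**
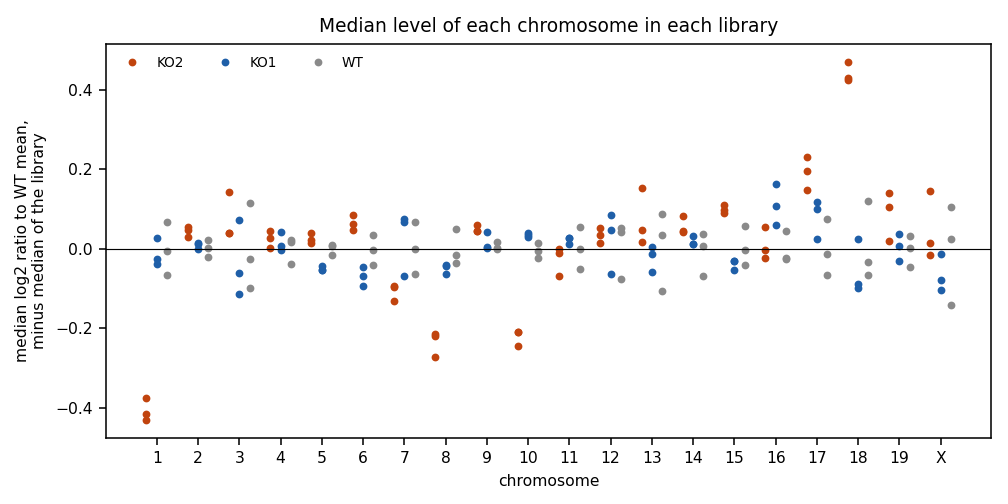
Median log2(TPM + 1) ratio to the WT mean for the genes of each chromosome, minus the median of the library, with 3 points per group (KO2, KO1 and WT; genes averaging 5 TPM or more). KO2 libraries lie at -0.43 to -0.38 on chromosome 1 and at 0.43 to 0.47 on chromosome 18, apart from all KO1 and WT libraries, and below them on chromosomes 8 and 10. They also lie above all KO1 and WT libraries on some other chromosomes, among them 15 and 17.

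The chromosome medians were also taken relative to all genes under other scalings. Median-of-ratios scaling and removal of the 20 most abundant genes change each library by a single factor, so these relative values could hardly move. Chromosome 18 stood at 0.50 in the 6 libraries, and at 0.50 and 0.51 under these scalings. Quantile normalization, which is not a single factor, gave 0.50. Chromosome 1 stood at -0.39 in all 4. At equal macrophage index the medians relative to all genes were 0.33 for chromosome 18, -0.51 for chromosome 1, -0.22 for chromosome 10 and -0.13 for chromosome 8. Several genes named above for their function lie on these chromosomes, among them Wnt10a, Pigr, Ildr2, Gsta3, Il18r1, Elf3, Atf6 and Mcm3 on chromosome 1, Hkdc1 and Taar4 on chromosome 10, Cdh1 and Nlrc5 on chromosome 8, and Zeb1, Cdh2, Smad2, Smad4, Spry4, Gata6 and Rps14 on chromosome 18. The difference was -4.38 for Urah on chromosome 7 and -3.94 for Gabrp on chromosome 11, where the chromosome medians were -0.14 and -0.07. The part of chromosome-wide shifts in the differences of single genes was not tested.

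Shifts also covered parts of chromosomes. Running medians of 25 neighboring genes gave 9886 windows, of which 111 lay 0.5 or more above the median of all genes and 152 lay 0.5 or more below it, and they merged into 14 stretches with 660 genes. Chromosome 1 held 5 lower stretches of 4.54 to 18.7 Mb, and chromosome 18 held 2 higher stretches of 53.7 and 5.80 Mb. On chromosome 5, the stretches from 137596645 to 138997370 (26 genes, median 0.47, 16 called higher, 1 lower) and from 143464584 to 146955614 (31 genes, median 0.43, 15 higher) were higher in KO2. The second holds Rac1, a small GTPase, and the actin-nucleating subunit gene Arpc1b. On chromosome 11, the stretches from 117815526 to 120549727 (37 genes, median -0.45, and -0.22 at equal index) and from 120598421 to 121716306 (28 genes, median -0.54, and -0.38 at equal index) were lower, the first with the actin gene Actg1 and the metalloproteinase inhibitor gene Timp2. Slc16a3 lies within the second.

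Chromosome 7 was split. The stretch from 99535466 to 105953967 held 58 genes, of which 55 had a difference below 0 and 38 were called lower (median -0.53); the integrin-linked kinase gene Ilk is among them. When the chromosome was divided after the last running median at or above 0, a division chosen after the values were seen, the 379 genes up to 68233668 had a median of 0.10 with 48 called higher and 32 lower. The 400 genes from 68736995 on had a median of -0.36 with 2 called higher and 168 lower. For these 400 genes the median relative to WT was -0.31, -0.33 and -0.30 in KO2 libraries, against -0.09, 0.08 and 0.09 in KO1 libraries. Urah lies among these 400 genes.

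In 2 of the lower stretches the KO2 median was not below WT. The one on chromosome 17 from 33909414 to 34856372 (40 genes) covers part of the MHC, with H2-K1 and the class II genes H2-Ab1 and H2-Aa, and its median was -0.25 in the 6 libraries and -0.05 at equal index; relative to WT it was 0.17 in KO2 and 0.25 in KO1. The one on chromosome 6 from 120836212 to 124814296 (29 genes, with the glycolytic gene Tpi1) had a median of -0.14, of -0.01 at equal index, and relative to WT of 0.05 in KO2 and 0.17 in KO1. For the other 12 stretches KO2 and KO1 medians relative to WT lay apart, for example at -0.54 in KO2 and 0.11 in KO1 for the second stretch on chromosome 11.

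**Figure D5:**
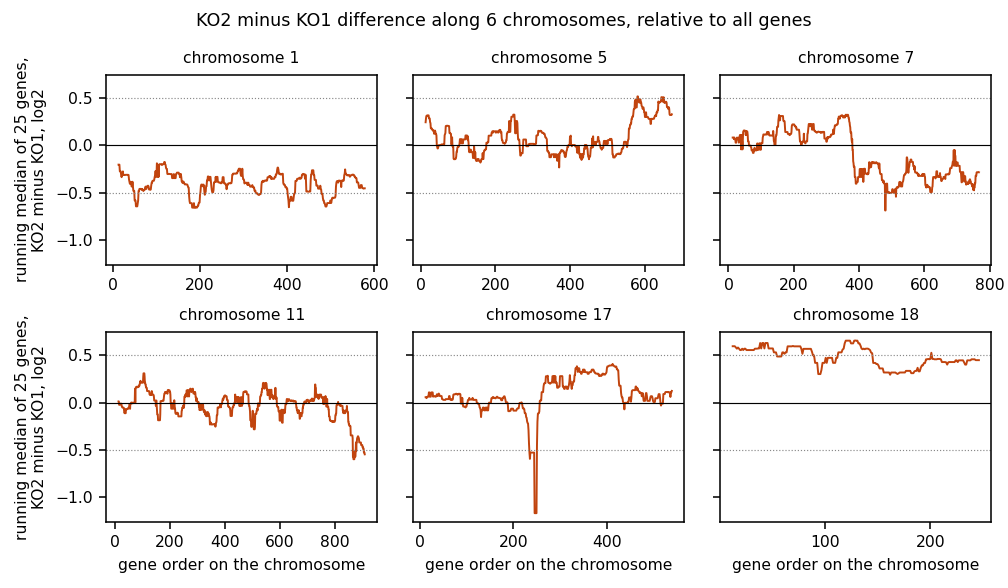
Running median of 25 neighboring genes of the KO2 minus KO1 difference (log2(TPM + 1) scale, relative to the median of all genes) against gene order on chromosomes 1, 5, 7, 11, 17 and 18; dotted lines mark 0.5 above and below. Chromosome 1 lies below 0 and chromosome 18 above 0 along their whole length, while chromosomes 5, 7 and 11 shift in one part.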

How the data were processed

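Total RNA of sorted tumor cells was sequenced, and abundance was estimated with Salmon against mm10, per the submitters' processing notes; the Salmon version is not given in the sources used here. The authors deposited TPM values per gene in 1 table, so read depth, and with it the counting error, is unknown. The name of that table holds the word batch, which the labels do not explain. Whether the libraries were prepared together is not stated, so a batch cannot be told apart from the clones. Each column sums to 1000000 TPM apart from rounding. The members and gene lists were chosen with earlier results of these data known. Differences are KO2 minus KO1 on log2(TPM + 1), which understates changes of low genes. They were tested two-sided with limma 3.58.1 (trended variance) in R 4.3.3 over the 13221 genes averaging 1 TPM or more in the 6 libraries, with Benjamini-Hochberg adjustment and a threshold of 0.05. The 6-library fit has 4 residual degrees of freedom. The fit at equal index has 6 group means plus the macrophage index in 18 libraries, with 11 residual degrees of freedom; a linear index term is an approximation. Named genes were the 15 largest rises and falls called in both fits, with at least 5 TPM in the higher clone, no overlap and no place in a list of other cells, then on/off genes and up to 4 members per list. Scripts were tested on simulated data. The alternatives were other pseudocounts, filters, scalings, indices and sets of libraries. The division of chromosome 7, the joined motif and the ranking of falls at equal index were chosen after seeing the data. Positions are from GENCODE M21 (mm10), promoter windows from RefSeq (GRCm38.p6). Results for some genes are not reported here.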

Additional observations from a re-analysis of the deposited data

How the results depend on the processing

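The counts of higher and lower genes moved most with scaling and with the libraries used. In the 6 libraries, the counts of 963 higher and 2310 lower genes became 1519 and 2021 without the 20 most abundant genes, 1521 higher with median-of-ratios scaling and 1959 higher with quantile normalization. At equal macrophage index, 422 higher and 1004 lower became 936 and 653 with median-of-ratios scaling and 831 and 536 with quantile normalization. Over the 9 libraries of 6419c5 with the index, 0 genes were higher and 20 lower by limma, and Cd209b at 0.075 and Mir6403 at 0.12 turned sign. Genes not called at equal index turned sign too, among them Zeb2 at 0.45, H2-Aa at 0.77 and Hmox1 at 0.15. That fit has fewer samples, and the index and the clone overlap in it. Leaving out 1 library gave 396 to 1146 higher and 1054 to 2556 lower genes, and at equal index 243 to 369 higher and 547 to 1216 lower. With the replicate number as a block, 469 genes were higher and 1494 lower in the 6 libraries, and 458 and 893 at equal index. The labels do not say what a number shares, the deviations of same-numbered libraries correlated at -0.13, -0.12 and 0.04, and none correlated best with its own number. Under the other alternatives no named gene whose value was recomputed changed sign. Depth is unknown from TPM, so low values cannot be given a counting error.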
